A study of Mus musculus with 5 samples.

Results

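Wnt ligands, their Frizzled receptors and LRP coreceptors, the secreted Wnt inhibitors and 3 core intracellular genes were examined in RNA of right brain hemispheres, taken from C57BL/6 males at an age of 5 months. The 44 genes were taken by symbol from the 47729 genes of the count table: 19 Wnt ligands, 10 Frizzled receptors, the coreceptors Lrp5 and Lrp6, 10 secreted inhibitors (Dkk1 to Dkk4, 4 Sfrp genes, Frzb and Wif1) and Axin1, Axin2 and Ctnnb1. The 5 mRNA libraries form 1 group, for which the labels name no genetic change and no treatment, so genes were compared with each other within a library and libraries with each other. The labels number the samples but do not state that each is a separate mouse. They are called animals 1 to 5 here, in accession order, and a p-value then describes only how far these libraries differ, for which technical variation may be enough. Each library is bulk RNA of many cell types, in which fewer cells of a type and less RNA per cell cannot be told apart.

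Wnt proteins are secreted, lipid-modified ligands that bind a Frizzled receptor together with Lrp5 or Lrp6. In the absence of ligand a complex built on Axin marks β-catenin, the product of Ctnnb1, for degradation, and ligand binding stops this, so that β-catenin enters the nucleus and acts with TCF/LEF factors. Secreted frizzled-related proteins (Sfrp genes, Frzb) and Wif1 bind the ligands, and Dkk1, Dkk2 and Dkk4 act on the coreceptors. In brain, Wnt signals take part in the growth of vessels and the blood-brain barrier, in axon growth and in synapse formation.

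Library depth ran from 13184234 to 15570064 counts. Brain markers were at high levels in every library, with a summed CPM (counts scaled to a common library total) of 8480 to 9143 for 6 neuronal genes, 5773 to 6063 for 6 astrocyte genes and 4766 to 5973 for 5 oligodendrocyte genes. Endothelial genes summed to 354 to 394 CPM, choroid plexus genes to 616 to 677 and meningeal fibroblast genes to 103 to 122. The brainstem list, whose sum ran from 5.46 CPM in animal 5 to 41.7 in animal 4, had the widest range of the 17 marker lists. Gabra6, Pcp2 and Cbln3 of the cerebellar list stood at 1.65, 0.878 and 0.993 RPKM (read count per gene length and library total) in animal 4. They reached at most 0.030, 0.166 and 0.142 in the other animals. Calb2 of that list was highest in animal 2 (66.2). How much cerebellum each sample held was not tested.

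The 44 genes ranged from 0 counts in every library, for Wnt3a, to a mean of 106 RPKM, for Ctnnb1. Levels between genes are given as RPKM, the read count divided by gene length and library total. A mean of at least 1 RPKM was reached by 27 of the 44 genes, beside 13039 of all 47729 genes. By role these were 11 of 19 ligands, 7 of 10 Frizzled receptors, 4 of 10 inhibitors, both coreceptors and all 3 intracellular genes. Means above 10 RPKM were found for 3 genes, Ctnnb1, Dkk3 and Fzd3. Means are given with ± SD of the 5 libraries (n = 5).

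**Figure D1:**
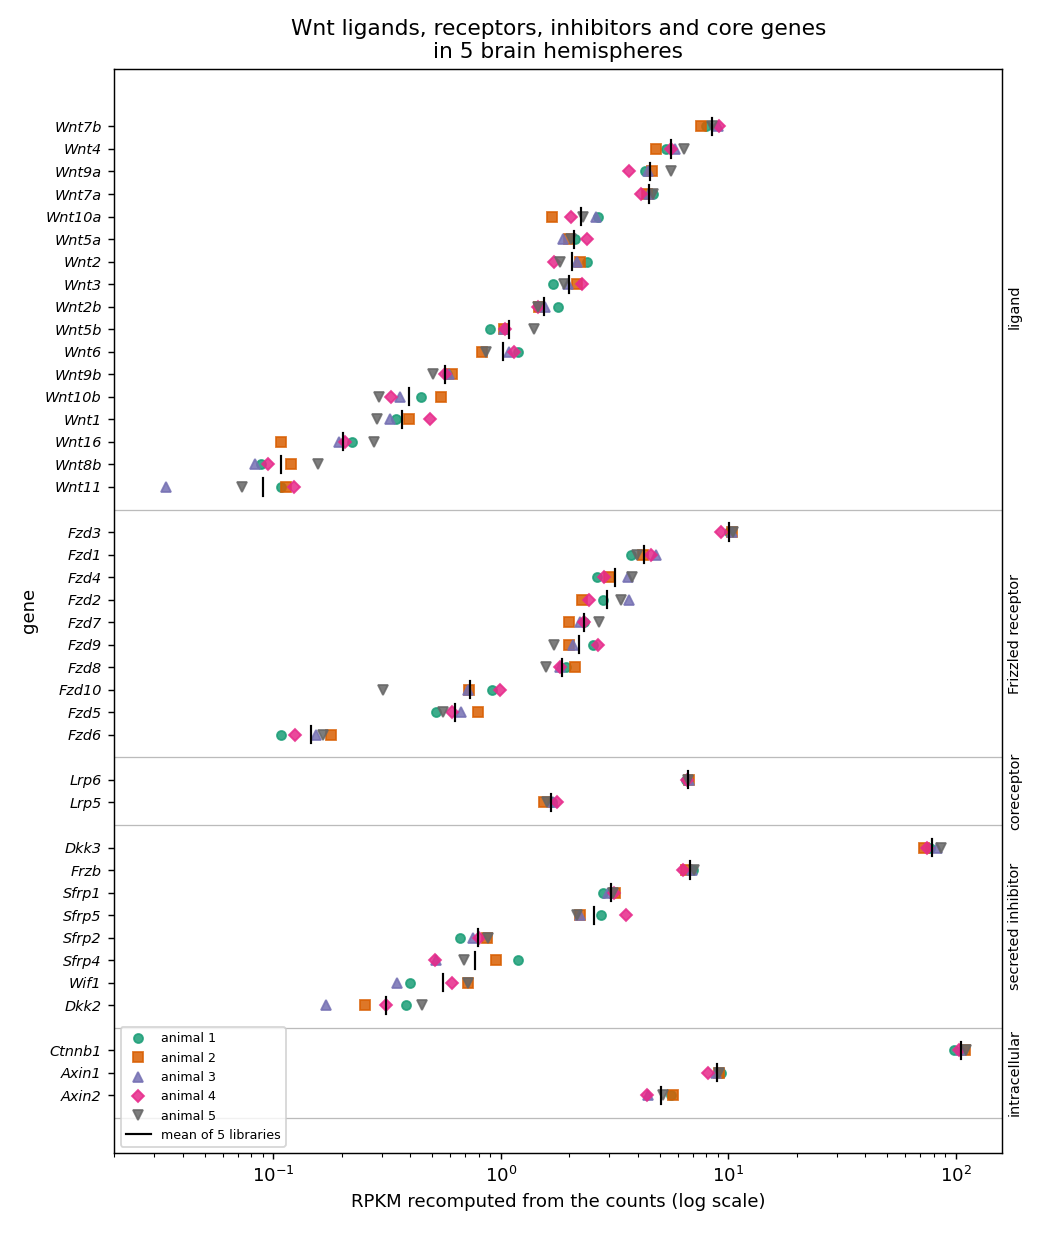
RPKM (log axis) of the 40 genes with at least 1 count in every library, by role, with 1 symbol per animal and a black bar at the mean of the 5 libraries. Ctnnb1 (mean 106 RPKM) and Dkk3 (78.5) lie far to the right of the other genes, and Fzd10 has 1 animal, at 0.303, well to the left of its other values.

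Among the ligands, Wnt7b had the highest level in every animal. Wnt7b (ENSMUSG00000022382, chromosome 15) and its close relative Wnt7a act on brain endothelium in the formation of vessels and the blood-brain barrier. Wnt7b stood at 8.01, 7.63, 9.06, 9.08 and 8.49 RPKM in animals 1 to 5 and made up 22.9% ± 1.46 of the summed level of the 19 ligands. Its lowest value lay above the highest of Wnt4, the next ligand, which was at 5.34, 4.82, 5.86, 5.60 and 6.40. Wnt7a was at 4.69, 4.38, 4.48, 4.15 and 4.66, a narrow range of 1.13-fold, and lay below Wnt7b in 5 of 5 animals. With the GENCODE M21 exon length of 4898 bases in place of 4413 and the same counts, the mean of Wnt7b would be 7.62 RPKM. Reads were not counted again over GENCODE exons, for this gene or for others given with GENCODE lengths.

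Wnt9a and Wnt7a could not be ranked. Wnt9a was at 4.29, 4.62, 4.42, 3.65 and 5.63 RPKM, with animal 5 highest and animal 4 lowest, and exceeded Wnt7a in 2 of 5 animals. Wnt4 exceeded Wnt9a in 5 of 5 animals although their ranges overlapped. Below a gap that no animal crossed came a group of 4 ligands near 2 RPKM whose order changed between animals.

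In this group Wnt10a was at 2.66, 1.69, 2.63, 2.03 and 2.30 RPKM, lowest in animal 2. Wnt5a, best known for signalling that does not run through β-catenin, was at 2.13, 2.001, 1.88, 2.397 and 2.05. Wnt2 stood at 2.39, 2.23, 2.15, 1.71 and 1.82, with the lowest values in animals 4 and 5. Wnt3 was at 1.7, 2.16, 1.97, 2.28 and 1.90, so that Wnt2 exceeded it in 3 of 5 animals and it exceeded Wnt2b in 4 of 5. Each neighbouring pair within the group had overlapping ranges.

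Wnt2b (mean 1.54 RPKM), Wnt5b (1.08) and Wnt6 (1.02) completed the ligands above 1 RPKM. Wnt5b was at 0.901 to 1.04 in animals 1 to 4 and at 1.4 in animal 5. Of the remaining 8 ligands, Wnt9b, Wnt10b, Wnt1, Wnt16, Wnt8b and Wnt11 had means from 0.0904 to 0.570 RPKM and at least 2 counts in each library. Wnt8a had 4 counts, all in animal 3. Wnt3a, a ligand much used to activate β-catenin signalling in culture, had 0 counts in all 5 libraries, which allows up to 0.0698 to 0.0824 RPKM per library (3 counts, counting error only).

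The Frizzled receptors were led by Fzd3, a receptor needed for axon tracts of the forebrain. Fzd3 (ENSMUSG00000007989, chromosome 14) stood at 10.04, 10.4, 10.4, 9.33 and 10.5 RPKM and took 35.7% ± 1.66 of the summed receptor level. Its values rest on the gene length of 4227 bases that the deposited tables imply. The GENCODE M21 annotation gives 12804 exon bases. The same counts divided by that length would give a mean of 3.35 RPKM, below that of Fzd1. Whether these counts include reads over all 12804 bases is not known, so this value does not settle the rank of Fzd3.

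Fzd1, Fzd2 and Fzd7 form a subfamily of similar proteins and differed modestly in level. Fzd1 was at 3.74, 4.23, 4.83, 4.56 and 3.98 RPKM, Fzd2 at 2.82, 2.27, 3.65, 2.45 and 3.40, and Fzd7 at 2.32, 1.99, 2.24, 2.32 and 2.71. Fzd1 exceeded Fzd2, and Fzd2 exceeded Fzd7, in 5 of 5 animals, while the ranges of Fzd1 and Fzd2 and of Fzd2 and Fzd7 overlapped. Fzd2 was highest in animals 3 and 5.

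Fzd4, which on endothelial cells is the receptor of Norrin, was at 2.66, 2.999, 3.64, 2.85 and 3.79 RPKM, also with animals 3 and 5 highest. Fzd9 was at 2.54, 1.99, 2.09, 2.69 and 1.72 and Fzd8 at 1.94, 2.13, 1.83, 1.82 and 1.59, each lowest in animal 5. With the GENCODE exon length of 5974 bases in place of 3346 and the same counts, the mean of Fzd8 would be 1.04 RPKM. Fzd10 was at 0.920, 0.724, 0.715, 0.988 and 0.303, so that animal 5 stood below the others. Fzd5 had a mean of 0.632 RPKM and Fzd6 the lowest of the receptors, 0.146. Fzd5 shares 22.3% of its sequence, in words of 50 bases on either strand, with other annotated transcripts, so its level is uncertain. On the other strand 17.8% of its exon bases overlap Gm38058, and these 2 figures can count the same bases. Gm38058 had a mean of 0.0482 RPKM.

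The coreceptors were steady between animals. Lrp6 (ENSMUSG00000030201, chromosome 6) stood at 6.54, 6.71, 6.73, 6.60 and 6.63 RPKM. Lrp5 was at 1.68, 1.55, 1.69, 1.77 and 1.60. Lrp6 thus made up 80.0% ± 0.901 of the coreceptor level in RPKM, and no value of Lrp5 came near those of Lrp6.

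Dkk3 stood apart from the other secreted inhibitors. It is the divergent member of the Dickkopf family and differs from Dkk1, Dkk2 and Dkk4 in that inhibition through the LRP coreceptors is not its established role. Dkk3 (ENSMUSG00000030772, chromosome 7) was at 76.8, 72.3, 82.9, 74.5 and 86.0 RPKM, made up 84.0% ± 1.24 of the summed inhibitor level and exceeded 98.3% of the detected genes. Dkk2 had a mean of 0.314 RPKM, whereas Dkk1 had 2 counts in all, 1 each in animals 1 and 2, and Dkk4 a single count, in animal 2.

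The Frizzled-related inhibitors covered a lower range. Frzb, also known as Sfrp3, was at 7.02, 6.54, 6.96, 6.35 and 7.05 RPKM. Sfrp1 was at 2.82, 3.17, 2.95, 3.14 and 3.12 and Sfrp5 at 2.75, 2.23, 2.22, 3.55 and 2.16. Sfrp1 exceeded Sfrp5 in every animal except animal 4, in which Sfrp5 had its highest value. Sfrp2 (mean 0.794 RPKM), Sfrp4 (0.774) and Wif1 (0.559) followed. Their order changed between animals, and Sfrp4 was higher in animals 1 (1.19) and 2 (0.957) than in the other animals (0.512 to 0.691). The mean of Sfrp4 would be 0.325 RPKM with its GENCODE exon length and the same counts.

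Ctnnb1 was the most abundant of the 44 genes, and its mean was 11.9-fold that of Axin1, a scaffold of the complex that degrades its product. Ctnnb1 (ENSMUSG00000006932, chromosome 9), which encodes β-catenin, a protein of cell junctions as well as of Wnt signalling, was at 98.3, 110.3, 105, 104 and 111 RPKM, above 98.9% of the detected genes. Of its exon bases 14.6% lie opposite exons of Ulk4, which had a mean of 0.441 RPKM. Axin1 was at 9.25, 9.14, 8.81, 8.17 and 9.07. Axin2, whose transcription is induced by β-catenin and which acts as a feedback inhibitor, was at 5.62, 5.75, 4.44, 4.40 and 5.18, with animals 3 and 4 lowest.

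Pairs of related genes kept 1 order in nearly all cases. Of 21 pairs of subfamily members, 4 held a gene with a mean of under 3 counts (Wnt3a, Wnt8a, Dkk1 or Dkk4) and are given no fold. Of the other 17, 16 had the same sign of the log2 ratio of RPKM plus 0.1 in all 5 animals, and Sfrp1 against Sfrp5 did not (mean 0.25 ± 0.30, exact two-sided sign-flip permutation p = 0.188). Each of the 16 reached an exact p of 0.0625 (adjusted over 21 pairs, 0.0691), the lower limit of a test on 5 values, and 0.05 is therefore out of reach for any pair.

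The size of the ratios differed widely between pairs. The widest was Fzd3 over Fzd6 (log2 ratio 5.38 ± 0.14, higher in 5 of 5 animals), followed by Frzb over Sfrp4 (3.04 ± 0.46), Wnt9a over Wnt9b (2.77 ± 0.28) and Wnt10a over Wnt10b (2.26 ± 0.46). Lrp6 over Lrp5 (1.94 ± 0.077) and Sfrp1 over Sfrp2 (1.82 ± 0.090) were the steadiest of the large ratios. Wnt7b over Wnt7a (0.90 ± 0.15), Wnt5a over Wnt5b (0.90 ± 0.26) and Axin1 over Axin2 (0.80 ± 0.13) were smaller. Fzd5 lay below Fzd8 (-1.43 ± 0.17). With GENCODE M21 exon lengths and the same counts, the log2 ratio was 3.94 for Fzd3 over Fzd6, 4.06 for Frzb over Sfrp4 and -0.65 for Fzd5 over Fzd8. Wnt2 exceeded Wnt2b by 0.39 ± 0.14 per gene length, and on CPM, without length, the order turned (-0.48 ± 0.14).

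**Figure D2:**
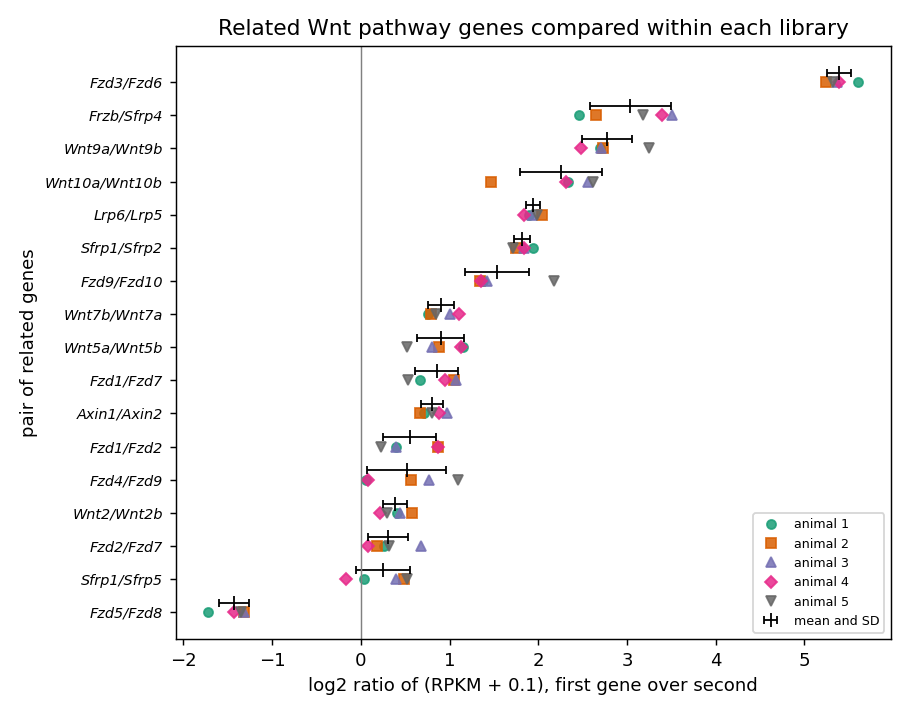
Log2 ratio of RPKM plus 0.1 between related genes, first gene over second, with 1 symbol per animal and the mean with its SD drawn just above the symbols. All 5 animals lie on 1 side of the line at 0 in 16 of the 17 pairs, and animal 4 crosses it for Sfrp1 over Sfrp5.

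Of 4 pairs of Wnt genes that lie next to each other in the genome, 3 kept 1 order of levels in all animals. Members of the list no more than 50000 bases apart on GRCm38 formed these pairs. On chromosome 11, Wnt3a and Wnt9a are transcribed away from each other across 16176 bases, with 0 counts for Wnt3a and 4.52 ± 0.718 RPKM for Wnt9a. Also on chromosome 11, Wnt9b and Wnt3 are divergent across 24329 bases and stood at 0.570 ± 0.0405 and 2.001 ± 0.226, with Wnt3 higher in 5 of 5 animals. On chromosome 15, Wnt10b and Wnt1, divergent across 11707 bases, had low levels (0.396 ± 0.102 and 0.368 ± 0.0768), with Wnt10b higher in 4 of 5 animals. That order depends on the gene length used. The same counts divided by GENCODE exon lengths gave Wnt10b a mean of 0.272 RPKM, below Wnt1 in 5 of 5 animals. Reads were not counted again over those exons, so the order of Wnt10b and Wnt1 was not settled. On chromosome 1, Wnt6 and Wnt10a lie in the same orientation 6194 bases apart, at 1.02 ± 0.167 and 2.26 ± 0.412.

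Promoter sequences were set beside these levels for the ends of the range and for the divergent Wnt9a and Wnt3a. RefSeq sequences of GRCm38.p6 were at hand for 29 of the 44 genes (33 start sites), and the 250 bases before each start were searched on both strands for the word CTTTGAA and for the related words with other endings, namely CTTTGTT, then CTTTGAT and lastly CTTTGTA, which differ in their last letters, can share end letters only across strands, and are forms of the site bound by TCF/LEF factors. A match was present in 4 of the 33 windows (12.1%), beside 14.8% of all 32851 RefSeq windows. The median GC content was 69.2% in the 33 windows and 52.4% in all, and the shares were not adjusted for this difference. All stretches run 5′ to 3′ on the gene's strand, the first 4 from 250 to 11 bases before the RefSeq start. Capitals mark the searched words, of which the first 4 stretches hold none. They are, in order, the most abundant gene, the feedback target Axin2, the divergent neighbours Wnt9a and Wnt3a, and for Dkk1 the 26 bases from 117 to 92 before the start that hold both of its words.
Ctnnb1, chr9:120933150-120933389, plus strand: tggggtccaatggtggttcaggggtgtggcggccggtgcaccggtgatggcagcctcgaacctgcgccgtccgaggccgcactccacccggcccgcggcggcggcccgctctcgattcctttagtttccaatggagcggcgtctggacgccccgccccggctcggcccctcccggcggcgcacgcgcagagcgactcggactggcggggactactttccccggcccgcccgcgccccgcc
Axin2, chr11:108920099-108920338, plus strand: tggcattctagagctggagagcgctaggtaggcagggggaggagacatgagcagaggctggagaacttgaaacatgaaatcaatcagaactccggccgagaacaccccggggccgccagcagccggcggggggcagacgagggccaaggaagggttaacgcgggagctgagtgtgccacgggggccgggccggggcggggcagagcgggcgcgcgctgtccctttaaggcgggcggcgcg
Wnt9a, chr11:59306680-59306919, plus strand: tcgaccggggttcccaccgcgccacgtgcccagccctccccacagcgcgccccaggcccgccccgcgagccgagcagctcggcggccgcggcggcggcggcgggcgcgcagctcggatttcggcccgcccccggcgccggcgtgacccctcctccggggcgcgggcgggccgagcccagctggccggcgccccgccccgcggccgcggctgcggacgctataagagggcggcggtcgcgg
Wnt3a, chr11:59290762-59291001, minus strand: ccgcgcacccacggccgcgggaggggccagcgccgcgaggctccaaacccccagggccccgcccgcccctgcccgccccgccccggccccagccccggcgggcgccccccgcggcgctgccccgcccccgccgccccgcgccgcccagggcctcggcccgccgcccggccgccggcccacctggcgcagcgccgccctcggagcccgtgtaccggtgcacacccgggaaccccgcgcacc
Dkk1, chr19:30549588-30549613, minus strand: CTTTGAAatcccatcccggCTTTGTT

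The promoters of the detected Ctnnb1 and Wnt9a and of the undetected Wnt3a were all rich in CpG. Over the 250 bases the ratio of observed to expected CpG was 1.01 for Ctnnb1, 1.09 for Wnt9a, 0.927 for Wnt3a and 0.860 for Axin2, while Dkk1 had 0.260. The median was 0.768 over the 33 windows of the listed genes and 0.374 over all RefSeq windows. By the first window of each gene, the 16 genes with a mean of at least 1 RPKM had a median of 0.826 and the 13 below it 0.679. GENCODE places the start of Dkk1 169 bases upstream of the RefSeq start, so that both words lie downstream of that start. For Ctnnb1 the GENCODE gene starts 4184 bases upstream of the RefSeq start. A match is a description of letters and not a shown binding site.

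Spread between animals was tested for each gene against genes of like abundance, with edgeR's quasi-likelihood dispersion and Benjamini-Hochberg adjustment over 14770 genes. The low-count filter was passed by 33 of the 44 genes, and the 11 others had at most 22 counts in any library. None of the 33 was more variable than the trend at an adjusted p of 0.05 (smallest 0.586), beside 0.305% of all genes tested. At an unadjusted p under 0.05, 6 of the 33 (18.2%) were more variable, beside 5.43% of all genes, and 3 of these 6 were Frizzled receptors. DESeq2 marked none of the 33 as a dispersion outlier, beside 0.684% of all genes. Ranges in the following sentences are fold ranges of TMM-scaled counts. The count of 6 was 3 without animal 3 and 2 with limma on the deposited RPKM.

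**Figure D3:**
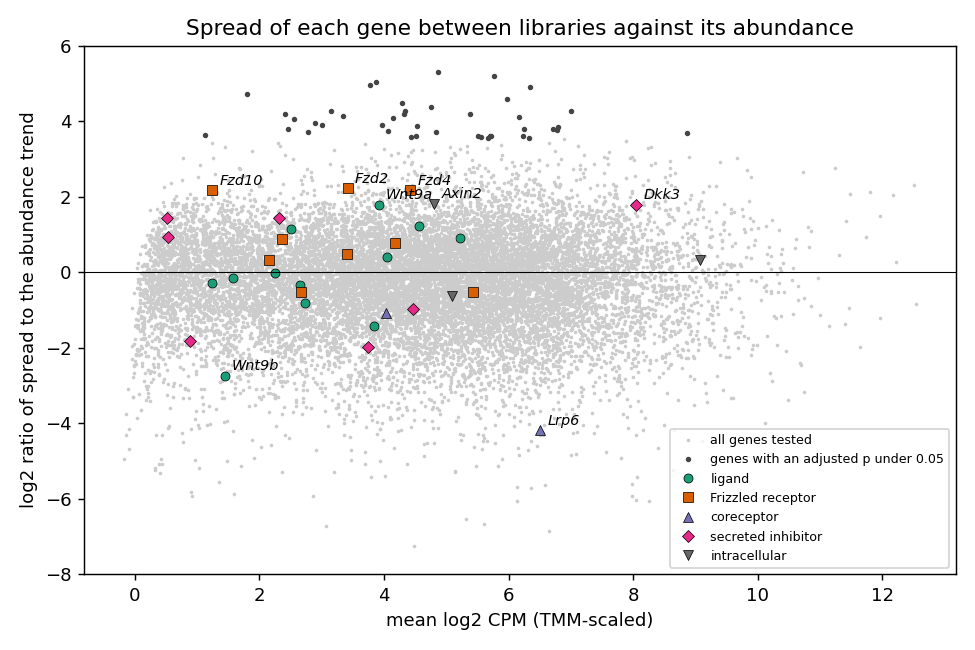
Spread of each gene between the 5 libraries, as the log2 ratio to the trend over abundance, against mean log2 CPM, with all 14770 genes tested in light grey, genes with an adjusted p under 0.05 in dark grey and the 33 tested Wnt genes coloured by role. Fzd2, Fzd10, Fzd4, Axin2, Dkk3 and Wnt9a lie highest among the coloured symbols, and Lrp6 lies lowest.

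Fzd2 had the widest spread of the listed genes relative to the trend. It ranged 1.62-fold between animals (edgeR unadjusted p = 0.0114, adjusted p = 0.586). Fzd4 ranged 1.41-fold (edgeR adjusted p = 0.630). Both were highest in animals 3 and 5. The endothelial marker sum was also highest in these animals, at 394 and 383 CPM against 354 to 367 in the others, and none of its 6 genes was at 0. Of these 6 genes only 1, Slc2a1, had its 2 highest values in animals 3 and 5 (log2 deviations from its mean of 0.25 and 0.28). Cldn5 had its 2 lowest there (-0.11 and -0.36), and the other 4 genes followed neither order. The choroid plexus sum, too, was highest in animals 3 and 5, at 670 and 677 CPM against 616 to 667 in the others. Animals 3 and 5 were also highest for the glucocorticoid-induced gene Sgk1, at 32.9 and 35.2 RPKM against 10.6 to 14.9. The part of these marker lists and of Sgk1 in the values of Fzd2 and Fzd4 was not tested.

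Fzd10 had a range of 2.98-fold, with its low value in animal 5 (13 counts, against 33 to 50 in the other libraries, edgeR adjusted p = 0.621). In the same library the brainstem list was lowest, at 5.46 CPM, with 1 of its 5 genes at 0 counts in at least 1 library. In animals 1 to 4 the list stood at 9.27, 28.4, 15.4 and 41.7 CPM, and Fzd10 at 0.920, 0.724, 0.715 and 0.988 RPKM. Animal 5 was the lowest library for 10 of the 17 marker lists, among them hypothalamus (26.2 CPM against 38.2 to 51.9) and red blood cells (53.1 against 86.8 to 201). Their part in the value of Fzd10 was not tested.

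Axin2 ranged 1.29-fold (edgeR unadjusted p = 0.0318, adjusted p = 0.837). Dkk3 ranged 1.202-fold (edgeR adjusted p = 0.837) and was highest in animals 5 and 3 and lowest in animal 2. The neuronal list was likewise highest in animal 5 (9143 CPM) and lowest in animal 2 (8480), with 5 of its 6 genes above their own mean in animal 5 and 6 of 6 below it in animal 2. The meningeal fibroblast list had the same ends, at 122 CPM in animal 5 and 103 in animal 2. The part of either list in the values of Dkk3 was not tested. Wnt9a ranged 1.54-fold (edgeR adjusted p = 0.839), with animals 5 and 4 at the ends.

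**Figure D4:**
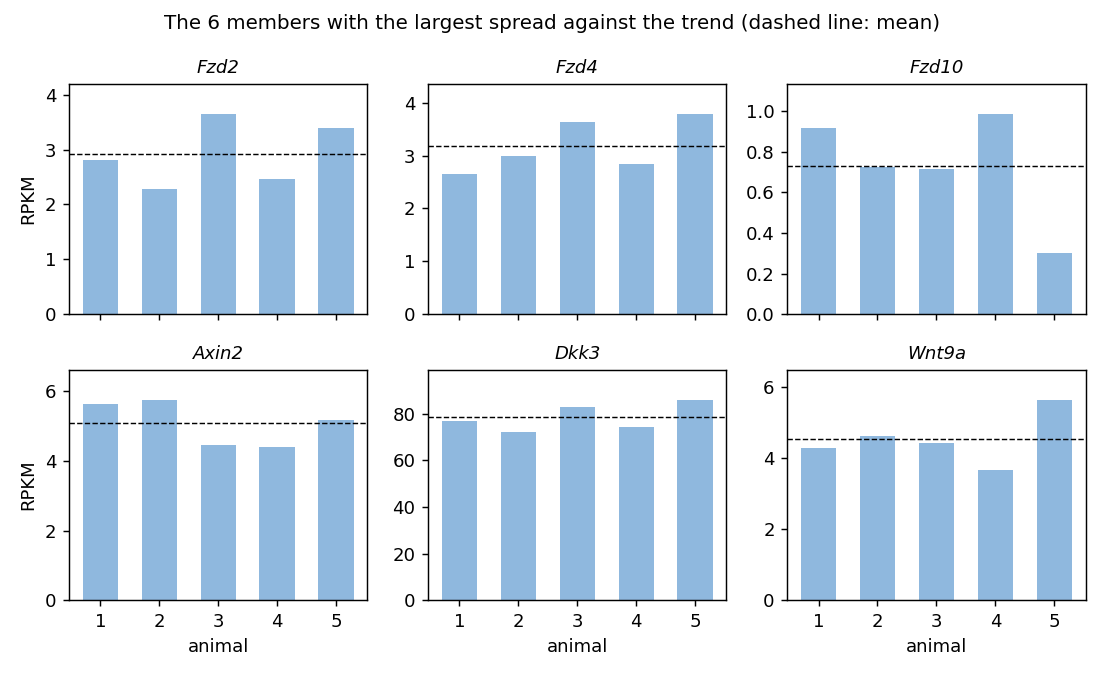
RPKM in animals 1 to 5 (bars, from 0) of the 6 genes with an unadjusted p under 0.05 for higher variability, with the mean as a dashed line. Fzd2 and Fzd4 are highest in animals 3 and 5, Fzd10 is lowest in animal 5, and Axin2 is lowest in animals 3 and 4.

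Lrp6 was the steadiest of the listed genes, with a range of 1.03-fold over 1195 to 1404 counts (edgeR lower tail, unadjusted p = 0.00619, adjusted p = 0.881). Wnt9b followed with 1.19-fold (unadjusted p = 0.0398 in edgeR's lower tail, adjusted p = 0.987). None of the 33 genes was less variable than the trend at an adjusted p of 0.05, beside 0% of all genes. At an unadjusted p under 0.05 there were 2, or 6.06%, beside 5% of all genes. The median range over the 33 genes was 1.32-fold and over all genes tested 1.19-fold, and the median ratio to the trend, which takes abundance into account, was 1.26 and 0.875.

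Between 14 and 19 of the 33 genes lay above their own mean in each animal. The mean log2 deviation of the 33 genes from their own means ran from -0.020 in animal 2 to 0.023 in animal 1, and that of all genes tested from -0.0072 to 0.012. The 9 tested receptors had their highest mean in animal 3 (0.097). Their mean of -0.12 in animal 5 came from Fzd10 (-1.07), and the 8 other receptors averaged -0.0018 there. The 7 tested inhibitors were lowest in animal 3 (-0.16), where Wif1 (-0.55) and Sfrp4 (-0.43), each of few counts, were furthest below their own means. The 12 tested ligands ran from -0.086 in animal 2 to 0.043 in animal 3.

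The remaining genes of the pathway were measured from 7 lists with 77 genes, of which 76 were matched by symbol and 62 reached a mean of 1 RPKM. The complex that degrades β-catenin and the Dishevelled genes had the highest median, 22.2 RPKM, with all 15 genes above 1. It was led by the kinase gene Gsk3a (49.4 ± 2.398, uncertain because it shares 28.6% of its sequence with other transcripts) and the ubiquitin ligase subunit gene Fbxw11 (38.04 ± 1.17). The nuclear effectors had a median of 6.95 RPKM, led by the β-catenin antagonist gene Cby1 (20.9 ± 1.48) and the corepressor gene Tle4 (16.0 ± 0.278).

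Genes for ligand handling (median 5.37 RPKM) and for R-spondins, LGR receptors and their ligases (2.80) had lower medians. Porcn, the enzyme that attaches the lipid to Wnt proteins, stood at 17.6 ± 0.836 RPKM and the Wnt carrier Wls at 5.90 ± 0.118. R-spondins and their LGR receptors amplify Wnt signals, and their list also held the ligase genes Znrf3 and Rnf43. In this list Lgr4 was at 6.27 ± 0.347 and Rspo2 at 5.19 ± 0.445, and 5 of 9 genes reached 1 RPKM. Among alternative receptors and modulators, Dkkl1 (13.0 ± 0.511) and the membrane inhibitor gene Apcdd1 (8.26 ± 0.615) were highest. The planar polarity genes Prickle2 (29.8 ± 1.31) and Celsr2 (26.0 ± 0.578) exceeded every Frizzled receptor, and Tnfrsf19 (13.1 ± 0.499) and the cyclin gene Ccnd1 (8.64 ± 0.794) led the other target genes.

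**Figure D5:**
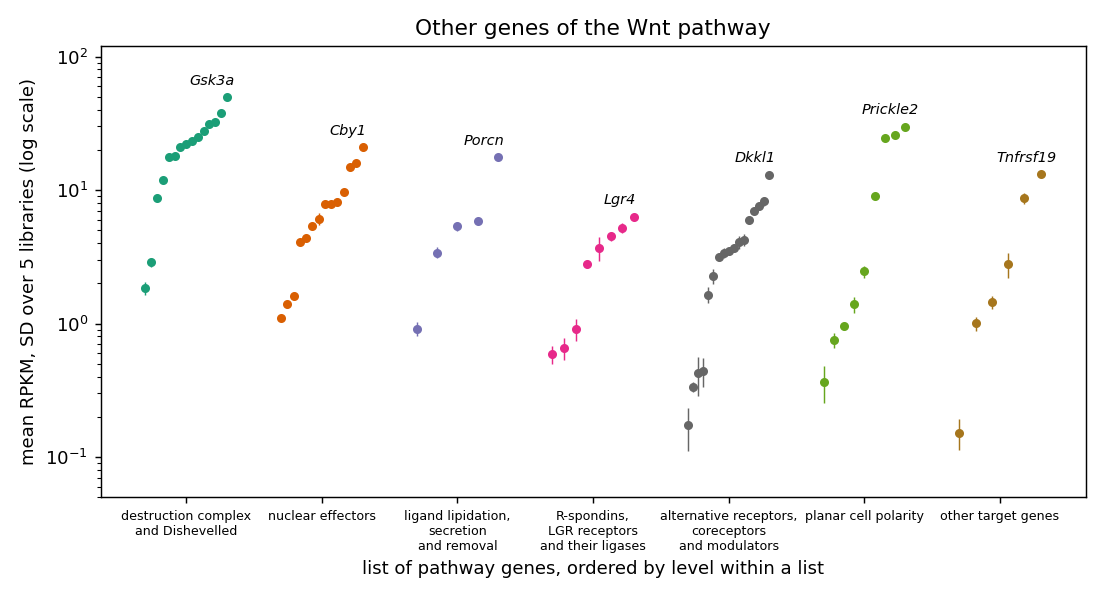
Mean RPKM (log axis) with the SD over 5 libraries for the pathway genes with a mean of at least 3 counts, 1 column per list and ordered by level within it, with the highest gene named. The lists of the degradation complex and of planar polarity reach the highest levels, 49.4 RPKM for Gsk3a and 29.8 for Prickle2.

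Of the 76 genes, 71 were tested for spread and none was called in either tail by edgeR at an adjusted p of 0.05. At an unadjusted p under 0.05, 1 of 71 was more variable (1.41%), beside 5.43% of all genes, and 6 were less variable (8.45%), beside 5%. The 1 was Tcf7l2, which encodes a TCF factor, at 6.16, 6.33, 6.37, 6.67 and 4.99 RPKM (edgeR adjusted p = 0.693). It was lowest in animal 5, the lowest library for 10 of the 17 marker lists, and their part was not tested.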

How the data were processed

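Build GRCm38 and the tools CASAVA 1.7, STAR 2.4.1d as well as featureCounts 1.4.6-p4 are listed without their roles, per the submitters' processing notes. Not given in the sources used here are how strand and multiply mapped reads were handled and which annotation release was used. Values in the count table deposited by the authors are whole numbers for each Ensembl gene, without normalization. The RPKM table deposited by the authors follows from these counts only if the 5 library totals are taken in turn down its rows (100.0% of 117232 nonzero entries recovered, 8.22% with each library's own total), so RPKM was recomputed with own totals and the gene length this rule yields. Symbols and positions come from GENCODE M21 on GRCm38 (47224 genes matched). The fit used edgeR 4.0.16 under R 4.3.3, with filterByExpr, TMM and a robust quasi-likelihood model holding an intercept only. Each gene's dispersion was divided by its trend and compared with an F distribution (degrees of freedom 4 and 15.3), by a one-sided test for either tail at a threshold of 0.05. The test was also run on simulated counts, whose outcome is not reported here. Alternatives used DESeq2 1.42.0, limma 3.58.1, other scalings and filters and each library left out. Pairs had an exact sign-flip test over 32 sign patterns. The count floor covers counting error only, since the sources name no molecular identifiers.

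The members, lists, pairs and tests were chosen with earlier results of these data known. The rule gave values per animal for genes with a mean of at least 2 RPKM, called for variability, in a pair whose order changed or with an outlying library, and named the 2 most abundant genes of each pathway list. Values of Fzd8, Fzd10, Lrp5, Sfrp4, Tcf7l2, Sgk1, Slc2a1, Cldn5, Ulk4 and Gm38058 were added after they were seen. So were those of the cerebellar list genes Gabra6, Pcp2, Cbln3 and Calb2. Of the pathway symbols, Tiki1 was not matched.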

Additional observations from a re-analysis of the deposited data

Results flagged for a closer look

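Of 74 sets of 5 values checked for a library that lies apart from the others (the gap to the nearest value over the whole range, above 0.71), 6 passed. Chance alone passes about 1 set in 20 of independent, normally distributed values, whereas gene and ratio sets here share values. Wnt5b was high in animal 5, at 1.4 RPKM against 0.901 to 1.04 (ratio 0.720), from 49 counts against 32 to 43. Wnt8a (ratio 1.0) had its 4 counts in animal 3 and Dkk4 (ratio 1.0) its single count in animal 2. With counts in only 1 library this ratio is always 1.0, so these flags carry no information on spread. The log2 ratio of Wnt10a to Wnt10b was low in animal 2, at 1.47 against 2.31 to 2.62 (ratio 0.732), where Wnt10a had its lowest and Wnt10b its highest level. The log2 ratio of Fzd5 to Fzd8 was low in animal 1, at -1.72 against -1.43 to -1.31 (ratio 0.711). The log2 ratio of Fzd9 to Fzd10 was high in animal 5, at 2.17 against 1.34 to 1.42 (ratio 0.904). Both Fzd9 and Fzd10 were lowest in that animal.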

How the results depend on the processing

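No listed gene was called more or less variable under the main setting or any of 11 alternatives of the edgeR and limma tests, and DESeq2 dispersion outliers held none. For the 8 genes with an unadjusted p under 0.05 in either tail, the smallest adjusted p over these alternatives was 0.127. The unadjusted count of 6 more variable genes was 2 with limma on the deposited RPKM and ran from 3 to 7 when 1 library was left out, lowest without animal 3. These counts were added as alternatives after the data were seen. The sign of the mean log2 ratio held in 17 of 17 pairs under each alternative except CPM without gene length. These pairs include Sfrp1 to Sfrp5, whose sign differed between animals in the main setting. On CPM, Wnt2 to Wnt2b turned to -0.48 because length no longer entered. GENCODE exon lengths were an alternative added after the data were seen, with the counts left unchanged. With these lengths 2 of 22 mean levels moved by more than 1 SD, Fzd3 (3.35 RPKM) and Wnt7b (7.62). The log2 ratio of the neighbours Wnt10b to Wnt1 turned from 0.075 to -0.34 with them. Since reads were not counted again over GENCODE exons, these shifts show only the effect of the divisor. No paired analysis was possible because all libraries belong to 1 group. The 11 genes with at most 22 counts in any library were too shallow to test for spread after the filter.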
